A study of Mus musculus with 7 samples.

Results

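The axon guidance ligands and receptors are the semaphorins with their plexin and neuropilin receptors, the Slits with the Robo receptors, the netrins with Dcc and the Unc5 receptors, and the ephrins with the Eph receptors. Members were chosen by symbol: every probe was kept whose transcript belonged to a gene of the Sema, Plxn, Epha, Ephb, Efna, Efnb or Unc5 families, or to Nrp1, Nrp2, Robo1, Robo2, Robo3, Slit1, Slit2, Slit3, Ntn1, Ntn3, Ntn4 or Dcc. The array held a named probe for 64 such genes of 17174 named genes, and the brightest probe stood for each gene. By symbol alone, 32 of the 64 were counted as ligands and 32 as receptors, Unc5cl among the latter. The rule uses symbols and no measured value, but it was set with earlier results of these arrays known. Probes for Sema3g, Plxnb2, Efna3 and Robo3 were not matched and these genes were not analysed here.

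The samples were subpallium, that is ganglionic eminences with septum, dissected from female embryos of CD-1 mice at E12.5; each single-colour Agilent array carried the RNA of 1 embryo. The 4 control arrays carry no allele in their labels; the other 3 are labelled Otx2 cKO, a conditional knockout in which RxCre, a Cre line active across the forebrain outside its caudal dorsomedial part, recombines a floxed Otx2 allele. Otx2 is a homeodomain transcription factor of the early forebrain, and the comparison asks which genes depend on it in this tissue. Of 4 litters, litter 2 supplied cKO-labelled replicates 1 and 3 together with control replicates 2 and 3, and each remaining array was the only one of its litter. Slide 1 held control replicates 1 and 2 with cKO-labelled replicate 1, and slide 2 held the other arrays.

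Guidance molecules tell growing axons and migrating neurons where to go. Ligands are secreted or held on cell surfaces, and a receptor on the growth cone turns contact into attraction or repulsion by changing the cytoskeleton. In the embryonic subpallium, semaphorins and their neuropilin receptors steer interneurons around the striatum, Slits and Robos keep cells and axons away from the midline, and ephrins with Eph receptors set borders between regions and sort corticostriatal and thalamic axons.

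All values below are log2 signals relative to the 75th percentile of the array, so a difference of 1 is a factor of 2 and a negative value is a signal below that percentile. Values per array are given in replicate order, controls first. Differences are the cKO-labelled mean minus the control mean, with limma's moderated SE over 4 control and 3 cKO-labelled arrays unless a flagged spot was left out. The Otx2 probe itself was higher in the arrays labelled Otx2 cKO, by 1.51 ± 0.14 (SE, limma adjusted p = 0.018), with 0.00, 0.33, 0.23 and 0.38 in the controls and 1.63, 2.01 and 1.59 in the cKO-labelled arrays. The labels leave unsaid what recombination removes from Otx2, so the probe does not check the labels, and every direction below is that of the labels. All 15 subpallial marker genes were well above background on all 7 arrays, and 12 had negative differences. Past an adjusted p of 0.05, 1 of them was lower, Lhx8 (-2.05 ± 0.20 SE, limma adjusted p = 0.018). At an unadjusted limma p under 0.05, 4 of the 15 (26.67%) were lower and 0 higher, against 6.71% and 3.98% of all genes. The 4 were Lhx8, Lhx6 (-1.19 ± 0.18 SE), Gad1 (-0.68 ± 0.16 SE) and Gad2 (-0.35 ± 0.09 SE), none overlapping. The correlation of 2 arrays was 0.980 to 0.992 across groups, 0.988 to 0.993 within the controls and 0.984 to 0.990 within the other group.

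Most guidance genes were detected: 58 of the 64 were well above background on all 7 arrays, Epha1 was on 6, and Epha6, Epha10, Plxnb3, Sema3d and Unc5cl were on 1 array or none. With Dcc left out because 5 of its 7 spots were flagged, 58 members were tested among 13347 genes. None of the 58 passed an adjusted p of 0.05 in limma, a threshold that 0.195% of all genes tested passed. At an unadjusted limma p under 0.05, 12 members (20.7%) were lower in the cKO-labelled arrays, against 6.71% of all genes, and 1 member, Slit2, was higher, against 3.98%. Without cKO-labelled replicate 2 the higher count was 6 of 56, against 3.92% of all genes in that fit. The lower members were Plxna4, Plxna2, Epha5, Epha8 and Ephb6 among receptors and Sema3c, Sema3e, Sema3f, Sema4f, Sema4g, Sema6b and Sema7a among ligands. Over unflagged spots, the cKO-labelled values lay wholly below the control values for 12 members, against 6.98% of all genes, and wholly above them for 2 members, Slit2 and Nrp1, against 4.85%. Of these 12, 9 had a value on all 7 arrays; Plxna2, Plxna3 and Sema6d had 2 cKO-labelled values each, and with flagged spots kept Plxna2 and Plxna3 overlapped. Over the 58 members the median difference was -0.06, with 35 negative and 23 positive, and over all genes it was 0.01. In dissected tissue, fewer cells of a type and less RNA per cell cannot be told apart. The median was -0.12 when arrays were centred on their median, a centring that moved the median of all genes to -0.06. An exact permutation test of 4 against 3 arrays cannot go below a two-sided p of 0.0571, so no single gene could pass 0.05 by it.

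**Figure D1:**
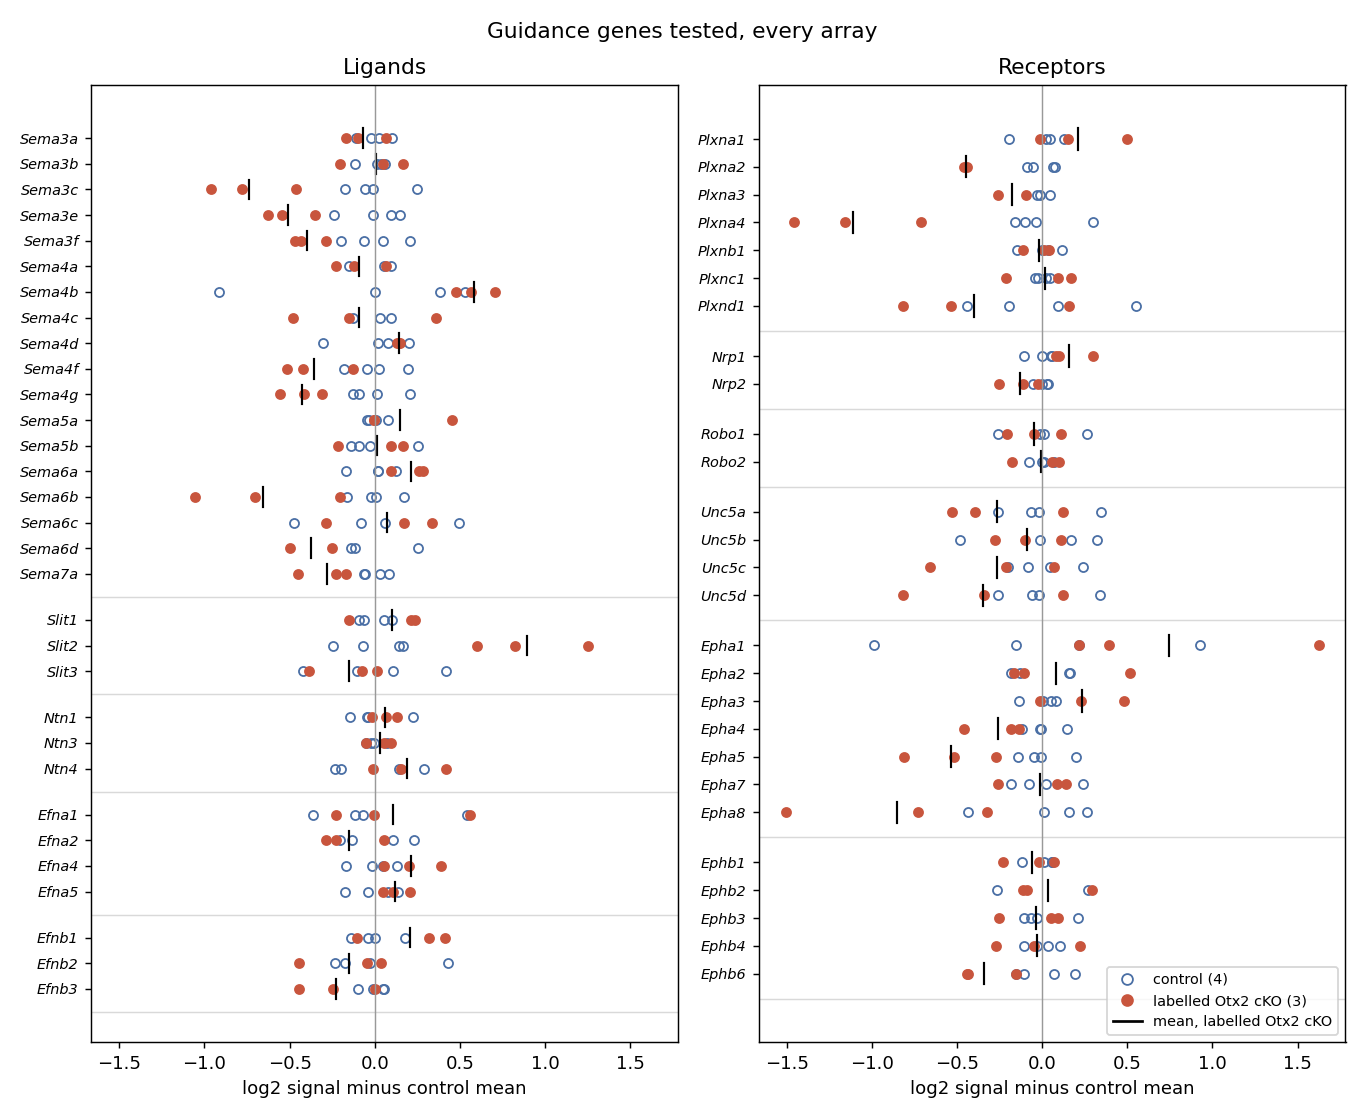
Each row is 1 guidance gene tested; the horizontal axis is the log2 signal minus the gene's control mean, with open circles for the 4 control arrays, filled circles for the 3 arrays labelled Otx2 cKO and a bar at their mean. Filled points of Plxna4 and Sema3c lie to the left of all open ones and those of Slit2 to the right, while most other rows mix both kinds of point.

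The genes with the smallest p-values whose promoter was in the sequence table are shown to give the start regions of 1 member that was higher, Slit2, and 2 that were lower, Sema3c and Plxna2. Each sequence is the 250 bases before the gene's start on the plus strand of build GRCm38.p6, from RefSeq, written 5′ to 3′: chr5:47982905-47983154 for Slit2, chr5:17574566-17574815 for Sema3c and chr1:194619579-194619828 for Plxna2. Capitals mark the homeodomain core TAAT or its reverse complement ATTA.
Slit2: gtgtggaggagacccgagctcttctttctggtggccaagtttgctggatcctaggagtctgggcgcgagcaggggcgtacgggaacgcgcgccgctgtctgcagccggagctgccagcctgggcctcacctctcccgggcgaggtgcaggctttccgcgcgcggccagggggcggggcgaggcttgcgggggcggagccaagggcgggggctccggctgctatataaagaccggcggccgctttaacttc
Sema3c: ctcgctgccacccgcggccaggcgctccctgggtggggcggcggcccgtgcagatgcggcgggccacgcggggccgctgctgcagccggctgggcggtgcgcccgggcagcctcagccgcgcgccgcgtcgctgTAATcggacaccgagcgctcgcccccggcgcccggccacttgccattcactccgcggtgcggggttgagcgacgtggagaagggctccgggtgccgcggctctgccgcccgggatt
Plxna2: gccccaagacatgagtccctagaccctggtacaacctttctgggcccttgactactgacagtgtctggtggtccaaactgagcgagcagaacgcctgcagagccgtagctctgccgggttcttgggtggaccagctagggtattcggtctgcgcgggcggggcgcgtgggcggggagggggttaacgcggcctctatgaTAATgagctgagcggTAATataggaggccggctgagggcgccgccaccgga
The core occurred 0 times in the Slit2 window, 1 time in that of Sema3c and 2 times in that of Plxna2, whose windows hold 69.6%, 78.4% and 62.8% G and C. Searched on both strands, TAAT was in 21 of the 54 guidance promoters in the table (38.89%), in 4 of the 10 belonging to lower members (40.0%) and in 58.46% of the 27025 promoters of all genes. The longer form TAATCC, which contains TAAT and is the sequence Otx proteins are known to bind, was in 0 of 54 guidance promoters and in 7.212% of all promoters. These matches describe letters in a window and not binding.

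Among the ligands the semaphorins, membrane-bound or secreted proteins with a shared sema domain, held every lower member. Of the 18 semaphorins tested 7 (38.89%) were lower at an unadjusted limma p under 0.05, against 6.71% of all genes. At the same cut 0 were higher, against 3.98% of all genes. Of the semaphorin differences 11 were negative and 7 positive, and the median was -0.09. The secreted class 3, which acts through neuropilin and plexin complexes, had 3 of its 5 tested members lower, beside the same 6.71% of all genes.

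Sema3c, a secreted semaphorin that binds both neuropilins, measured -3.45, -3.71, -3.76 and -3.88 in the controls and -4.16, -4.66 and -4.48 in the cKO-labelled arrays. The groups did not overlap, and cKO-labelled replicate 2 was lowest. Its difference was -0.74 ± 0.15 (SE; 95% interval -1.09 to -0.38; 1.67-fold lower; limma adjusted p = 0.204), against a within-group SD of 0.21.

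Sema3e, which can bind plexin D1 without a neuropilin, measured -1.95, -1.89, -2.05 and -2.28 in the controls and -2.40, -2.67 and -2.59 in the cKO-labelled arrays. Control replicate 4 was closest to the other group, and no values crossed. The difference was -0.51 ± 0.12 (SE, limma adjusted p = 0.268).

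Sema3f, the classic ligand of neuropilin 2, measured -1.56, -1.40, -1.67 and -1.81 in the controls and -1.90, -2.05 and -2.08 in the cKO-labelled arrays. The groups came close without overlapping, as control replicate 4 again lay next to cKO-labelled replicate 1. The difference was -0.40 ± 0.12 (SE, limma adjusted p = 0.319). Sema3a, the classic ligand of neuropilin 1, showed no such separation: its values ran from -1.43 to -1.23 in controls and from -1.50 to -1.26 in cKO-labelled arrays. Its difference of -0.07 ± 0.09 (SE) had a 95% interval from -0.29 to 0.15. Sema3b, the remaining member of the class, differed by 0.01 ± 0.11 (SE).

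The transmembrane semaphorins were mixed. Sema4g measured 1.40, 1.44, 1.74 and 1.54 in the controls and 1.11, 1.22 and 0.97 in the cKO-labelled arrays, with no overlap and a difference of -0.43 ± 0.11 (SE, limma adjusted p = 0.287). Sema6b, a ligand of A-type plexins, measured 0.43, 0.24, 0.27 and 0.10 in the controls and 0.05, -0.80 and -0.44 in the cKO-labelled arrays. Most of its difference of -0.66 ± 0.20 (SE, limma adjusted p = 0.335) came from cKO-labelled replicates 2 and 3, as replicate 1 lay just under the lowest control. Sema7a, a lipid-anchored ligand of plexin C1, differed by -0.28 ± 0.10 (SE) without overlap, and Sema4f by -0.36 ± 0.13 (SE) with overlap. The class 6 ligands Sema6a and Sema6d, also partners of A-type plexins, had opposite signs, at 0.21 ± 0.10 (SE) and -0.38 ± 0.17 (SE, n = 3 and 2 after flagged spots were left out). Differences of the other transmembrane members, Sema4a to Sema4d, Sema5a, Sema5b and Sema6c, lay between -0.09 and 0.58, all with overlapping groups; Sema4a and Sema4c had 3 control values each. The widest of them, Sema4b at 0.58 ± 0.33 (SE), was dim and had a control SD of 0.65.

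**Figure D2:**
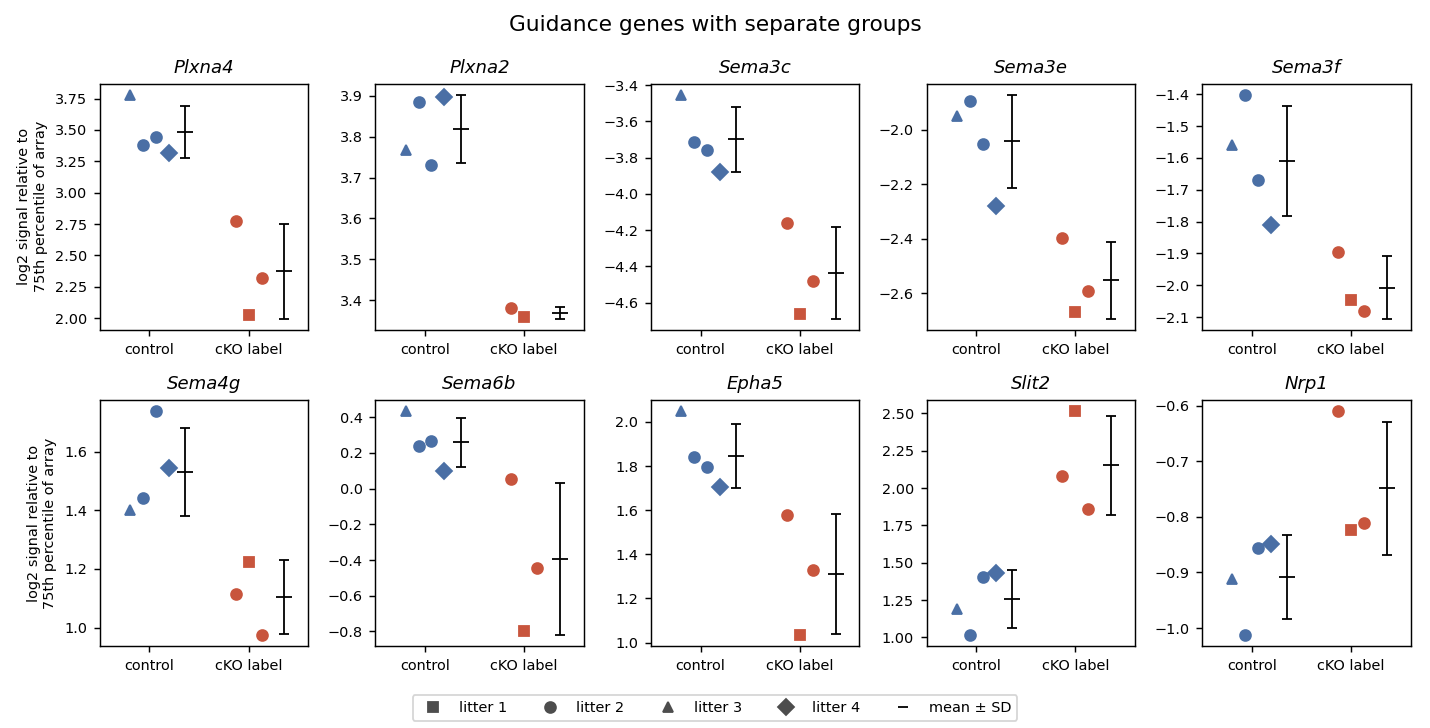
Log2 signal relative to the array's 75th percentile for 10 guidance genes whose groups did not overlap; each point is 1 array, its shape gives the litter, and the bars are group means with SD. In all 3 cKO-labelled arrays Slit2 lies above 1.43, the highest control, while both measured cKO-labelled arrays of Plxna2 lie under 3.73, its lowest control.

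The Slits, secreted repellents that bind Robo receptors, differed among themselves. Slit2 measured 1.19, 1.01, 1.40 and 1.43 in the controls and 2.08, 2.51 and 1.86 in the cKO-labelled arrays. All cKO-labelled arrays were above all controls, and replicate 2 was highest. Its difference was 0.89 ± 0.18 (SE; 95% interval 0.47 to 1.32; 1.86-fold higher; limma adjusted p = 0.187), the largest positive difference among members. Slit1 measured -3.17, -3.01, -3.05 and -3.20 in the controls and -2.89, -3.25 and -2.87 in the cKO-labelled arrays, and its groups overlapped at a difference of 0.10 ± 0.12 (SE). For Slit3 the difference was -0.15 ± 0.21 (SE). The median of the 3 genes was 0.10, and it was 0.0014 under normexp and 0.012 in the authors' value table.

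Netrins and ephrins did not separate the groups. Ntn1, the secreted cue that attracts axons through Dcc and repels them through Unc5 receptors, ran from -1.14 to -0.77 in controls and from -1.01 to -0.86 in cKO-labelled arrays, a difference of 0.06 ± 0.11 (SE) that was -0.0050 under median centring. Ntn3 and Ntn4 differed by 0.03 ± 0.08 (SE) and 0.19 ± 0.17 (SE). The ephrin-A ligands, which are lipid-anchored and act on EphA receptors, had 3 positive and 1 negative difference, led by Efna4 at 0.22 ± 0.11 (SE, limma adjusted p = 0.553). Efna5, a cue for thalamic and corticostriatal axons, ran from 1.92 to 2.24 in controls and from 2.15 to 2.31 in cKO-labelled arrays, a difference of 0.12 ± 0.10 (SE). The transmembrane ephrin-B ligands split: Efnb3, a midline barrier for axons, measured 4.16, 4.16, 4.10 and 4.01 in the controls and 4.11, 3.66 and 3.87 in the cKO-labelled arrays, a difference of -0.23 ± 0.12 (SE, limma adjusted p = 0.536). Efnb1 differed by 0.21 ± 0.15 (SE) and Efnb2 by -0.15 ± 0.19 (SE).

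Of the 27 receptors tested 20 had negative differences, against 15 of the 31 ligands and 48.99% of all genes. At an unadjusted limma p under 0.05, 5 receptors (18.52%) and 7 ligands (22.58%) were lower, against 6.71% of all genes. Plexins, the signalling receptors for semaphorins, gave 2 of these 5 receptors. Plxna4, which pairs with neuropilins for class 3 ligands and binds class 6 ligands directly, measured 3.78, 3.38, 3.45 and 3.32 in the controls and 2.77, 2.02 and 2.32 in the cKO-labelled arrays. Every cKO-labelled array was below every control, by at least the distance between 3.32 and 2.77. Its difference of -1.11 ± 0.20 (SE; 95% interval -1.57 to -0.65; 2.16-fold lower) was the largest negative difference among members, with a limma adjusted p of 0.141. That p was 0.038 with limma's trend of the variance on signal and 0.043 with array weights, and it ran up to 1.0 over the 24 alternatives.

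Plxna2, a receptor of Sema6a, measured 3.77, 3.88, 3.73 and 3.90 in the controls and 3.38 and 3.36 in cKO-labelled replicates 1 and 2; the spot of replicate 3 was flagged and left out. The groups were apart, by -0.45 ± 0.10 (SE over 4 and 2 arrays, limma adjusted p = 0.255). With the flagged spot kept, at 3.78, the difference was -0.31 and the groups overlapped. Both dimmer Plxna2 probes, unflagged on all 7 arrays and read from the same RNA, gave -0.43 without overlap. Plxna3 differed by -0.18 ± 0.11 (SE, n = 3 and 2) and Plxna1 by 0.21 ± 0.14 (SE), so the A-type plexins did not share a sign. Plxnd1, the receptor of Sema3e, differed by -0.40 ± 0.30 (SE) with wide overlap, Plxnb1 by -0.02 ± 0.09 (SE) and Plxnc1, the receptor of Sema7a, by 0.02 ± 0.11 (SE).

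The neuropilins, ligand-binding partners of plexins, differed little on their brightest probes. Nrp1 measured -0.91, -1.01, -0.86 and -0.85 in the controls and -0.61, -0.82 and -0.81 in the cKO-labelled arrays. The groups were separate by a narrow margin, between control replicate 4 and cKO-labelled replicates 2 and 3. The difference was 0.16 ± 0.09 (SE, limma adjusted p = 0.576), and a dimmer Nrp1 probe gave 0.63 with overlap. Nrp2, a receptor on migrating interneurons, measured 4.52, 4.56, 4.55 and 4.47 in the controls and 4.50, 4.42 and 4.27 in the cKO-labelled arrays, a difference of -0.13 ± 0.08 (SE, limma adjusted p = 0.618). The median of this pair of genes was 0.01, and -0.05 under median centring.

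Robo1 and Robo2, the Slit receptors, did not differ beyond their spread. Robo1 measured 2.12, 2.64, 2.39 and 2.36 in the controls and 2.48, 2.17 and 2.33 in the cKO-labelled arrays, a difference of -0.05 with a 95% interval from -0.38 to 0.28. For Robo2 the values were -1.11, -1.03, -0.96 and -1.04 in the controls and -0.98, -1.21 and -0.94 in the cKO-labelled arrays, and the interval ran from -0.23 to 0.21 around -0.01.

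All 4 tested Unc5 genes, which encode repulsive netrin receptors, had negative differences, and none reached an unadjusted p of 0.05. Unc5d measured -5.08, -5.44, -5.67 and -5.47 in the controls and -5.29, -6.23 and -5.76 in the cKO-labelled arrays, a difference of -0.35 ± 0.24 (SE, limma adjusted p = 0.642); a second, dimmer probe above background on 3 arrays gave 0.38. Unc5c ran from -2.11 to -1.67 in the controls and measured -2.57, -1.84 and -2.13 in the cKO-labelled arrays, a difference of -0.27 ± 0.19 (SE). It lay within the control range in cKO-labelled replicate 2. Unc5a differed by -0.27 ± 0.20 (SE) and Unc5b by -0.09 ± 0.20 (SE). Dcc, the attractive netrin receptor, measured 1.63, 1.76, 1.76 and 1.67 in the controls and 1.59, 1.62 and 1.50 in the cKO-labelled arrays with flagged spots kept, which left each cKO-labelled array under each control. Its difference was then -0.13 ± 0.08 (SE, limma adjusted p = 0.577), a value that rests on 5 flagged spots.

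The Eph receptors, tyrosine kinases that read ephrins on neighbouring cells, gave the 3 remaining lower receptors. Epha5 measured 2.05, 1.84, 1.80 and 1.71 in the controls and 1.58, 1.03 and 1.33 in the cKO-labelled arrays. No values crossed, and the difference was -0.54 ± 0.15 (SE, 1.45-fold lower, limma adjusted p = 0.307). Epha4, which binds ephrins of both classes, measured 3.61, 3.46, 3.45 and 3.34 in the controls and 3.28, 3.01 and 3.33 in the cKO-labelled arrays. Its groups were apart only narrowly, between control replicate 4 and cKO-labelled replicate 3, at a difference of -0.26 ± 0.11 (SE, limma adjusted p = 0.473). Epha8, a dim gene here, measured -4.50, -4.76, -4.61 and -5.20 in the controls and -5.49, -5.09 and -6.27 in the cKO-labelled arrays. Its difference of -0.85 ± 0.30 (SE, limma adjusted p = 0.398) came with overlap. Epha3, Epha2 and Epha7 differed by 0.23 ± 0.13, 0.08 ± 0.19 and -0.01 ± 0.14 (SE), and Epha1 by 0.75 ± 0.51 (SE) with a within-group SD of 0.78, the widest of all members.

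Among EphB receptors, Ephb6, which lacks kinase activity, measured -2.29, -2.41, -2.58 and -2.63 in the controls and -2.63, -2.92 and -2.91 in the cKO-labelled arrays. Control replicate 4 and cKO-labelled replicate 1 met, and the difference was -0.34 ± 0.12 (SE, limma adjusted p = 0.405). Ephb1, found on retinal axons, ran from 1.37 to 1.54 in controls and from 1.26 to 1.55 in cKO-labelled arrays, a difference of -0.06 ± 0.10 (SE). Ephb3 and Ephb4 differed by -0.04 ± 0.12 and -0.03 ± 0.13 (SE). Ephb2 differed by 0.03 ± 0.22 (SE), which rests on 2 controls; with their 2 flagged spots kept it was -0.18, and over its 20 alternatives it ran from -0.18 to 1.27.

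The members not tested below background can be described only by single arrays. Sema3d was well above background on 1 array only, cKO-labelled replicate 1, at -5.87, and was at the common floor of -7.59 elsewhere. Plxnb3 and Unc5cl were each above background on 1 array as well, while Epha6 and Epha10 were on 0. The median within-group SD of the tested members was 0.17, as it was over all genes (0.1747 and 0.1691).

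A total of 27 members had more than 1 probe, which let the same gene be read again on the same arrays. The positions of the probes within transcripts were not available. Of 29 other probes above background 23 gave the sign of the brightest probe, and for members at an unadjusted p under 0.05 this was 8 of 8. Plxna4 gave -0.82 and -0.95 on its other probes, Plxna2 gave -0.43 on both, and Slit2 gave 0.90. The Plxna4 probe at -0.95 was dim, with a mean of -5.98, and was well above background on 6 arrays. Its groups overlapped. Sema3e, Sema3f and Epha5 gave -0.40, -0.37 and -0.39, with overlap for Sema3e. These probes share the RNA of the same embryos and are not further replicates. Epha7 stood apart in the other sense, at -0.01 on its brightest probe and -0.34, with no overlap, on a dimmer one.

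**Figure D3:**
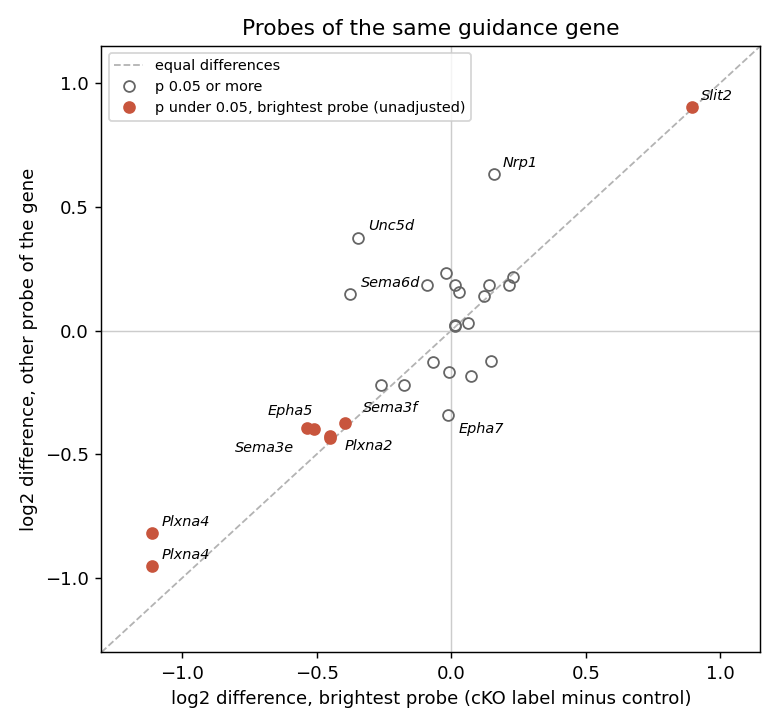
Each point is a further probe of a guidance gene, placed by the log2 difference of the gene's brightest probe (horizontal) and its own (vertical); the dashed line marks equal differences and filled points are genes at an unadjusted p under 0.05. The filled points keep their sign, while Unc5d (-0.35 and 0.38) falls in the opposite corner.

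Most neuronal genes and most subpallial genes, 12 of 15, had negative differences, and 6 of 12 pallial ones did. Of the 14 pan-neuronal genes measured, all above background on all 7 arrays, 11 had negative and 3 positive differences. At an unadjusted limma p under 0.05, 6.71% of all genes were lower and 3.98% higher. Of the neuronal genes 3 (21.43%) were lower at that cut and 0 higher. Summed over the 13 with a value on every array, their linear signal relative to the 75th percentile was 229.6 to 250.6 in controls and 178.8 to 226.6 in cKO-labelled arrays. The brightest of the 13, the neuronal tubulin Tubb3, differed by -0.37 ± 0.11 (SE), and a linear sum weighs bright genes most. The 3 neuronal genes with positive differences were Map2, Gap43 and Snap25. The neuronal sum therefore does not show a lower level of the whole list. The sum over 13 subpallial genes was 109 to 121 in controls and 90.04 to 111.7 in cKO-labelled arrays. The pallial genes were mixed: of 12 tested, 3 were lower and 3 higher at an unadjusted limma p under 0.05, with Neurod2 at -0.81 ± 0.21, Neurod6 at -0.77 ± 0.18, Emx2 at 0.55 ± 0.12 and Lhx9 at 0.58 ± 0.17 (SE). A sum over 10 of these 12 was 31.37 to 39.43 in controls and 24.65 to 29.72 in cKO-labelled arrays, without overlap. Eomes and Lhx2 were left out of it because each lacked a cKO-labelled value. Lhx2, the brightest pallial gene, measured 5.36, 5.21, 5.41 and 5.57 in the controls. In cKO-labelled replicates 1 and 3 it measured 5.58 and 5.92, above every control. The sum therefore describes the genes in it and does not show a lower level of the pallial list as a whole. All 13 pallial genes with a probe were well above background on all 7 arrays, and the part of the subpallial and pallial genes in the members' values was not tested. The per-array median of the neuronal genes was between -0.06 and 0.02 in controls and -0.02, -0.36 and -0.18 in cKO-labelled replicates 1 to 3. In the same order the median of all 58 members was 0.00, -0.15 and -0.10, and that of the 12 lower members, chosen on this comparison, was -0.32, -0.49 and -0.55. With the neuronal median as a covariate, 5 members were lower (background 4.5%) and 4 higher (background 3.45%): Plxna2, Plxna4, Sema3c, Sema4g and Unc5c, and Efna4, Efnb1, Sema4c and Slit2. All 12 lower members kept a negative sign there, but they were chosen as lower on these same arrays, so the signs are no separate test. Plxna4 was -0.69, Sema3c -0.44, Sema6b -0.19 and Epha5 -0.22. The neuronal median was itself lower in cKO-labelled replicates 2 and 3 than in every control, so this fit does not fully separate it from the label.

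**Figure D4:**
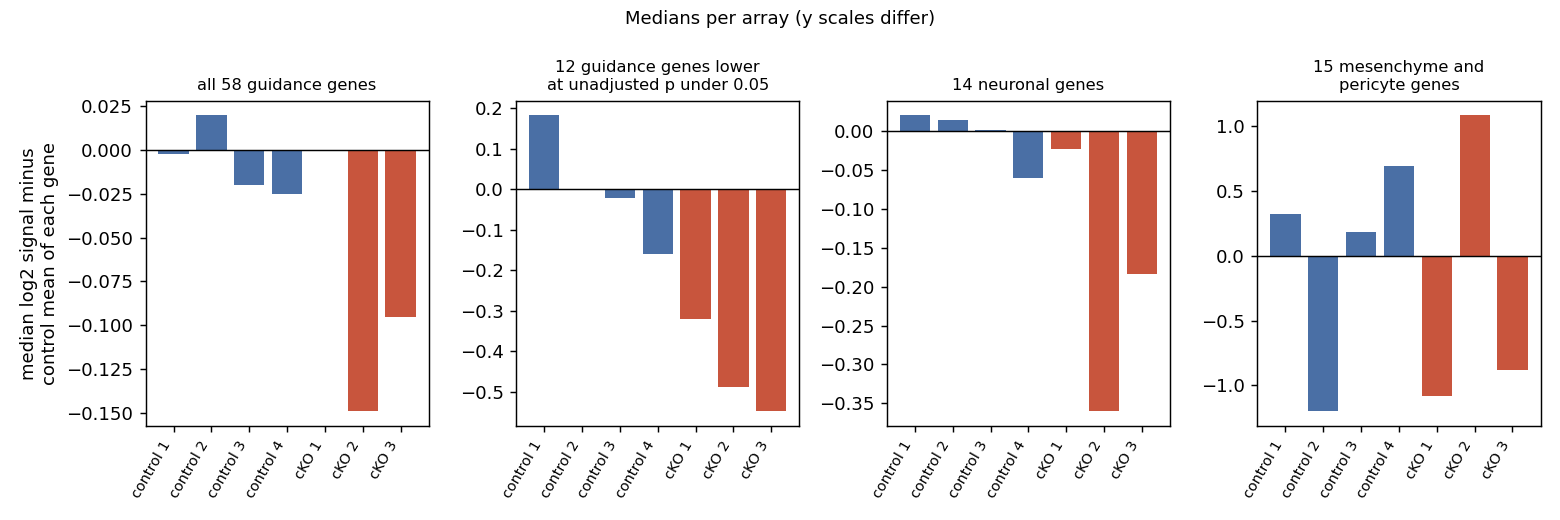
Median over each gene list of the log2 signal minus the gene's control mean, 1 bar per array, with a separate vertical scale in each panel. The 12 lower guidance genes are at -0.32 to -0.55 in the arrays labelled Otx2 cKO, the neuronal list is at -0.36 in replicate 2 and -0.02 in replicate 1, and the mesenchyme list is high in cKO-labelled replicate 2 and low in control replicate 2.

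Mesenchyme and pericyte genes varied between arrays of the same group, and all 15 tested had negative differences, from -2.67 to -0.002. The lowest, Dcn at -2.67 ± 1.82 (SE), had flagged spots left out in control replicate 1 and cKO-labelled replicate 2. At an unadjusted limma p under 0.05, 1 of them (6.667%) was lower, near the 6.71% of all genes. The list's median was -1.20 in control replicate 2 and 0.69 in control replicate 4. In cKO-labelled replicates 1 to 3 it was -1.08, 1.08 and -0.88. Summed over 14 genes the level was 12.23 to 30.49 in controls and 12.32 to 46.82 in cKO-labelled arrays. None of the 16 genes with a probe was under background on all arrays. With that median as a covariate 14 members were lower (background 8.66%) and 2 higher, Epha1 and Slit2 (background 6.07%).

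With the slide as a block the same 12 members were lower (background 7.72%) and Efna4 joined Slit2 as higher (background 4.67%). Slide 2 alone, with 2 arrays in each group, had 9 lower members of 54 (background 6.42%), and litter 2 alone, also with 2 and 2, had 6 of 52 (background 3.05%): Epha8, Plxna4, Sema3c, Sema3e, Sema3f and Sema4g. Slide 1 held a single cKO-labelled array, whose spread had to be taken from the controls and from other genes, so its count, 1 of 56 (background 1.26%), has little weight. On slide 1, on slide 2 and in litter 2, Slit2 differed by 0.98, 0.77 and 0.76 and Plxna4 by -0.81, -1.21 and -0.87. These are parts of the same 7 arrays and no further replicates.

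**Figure D5:**
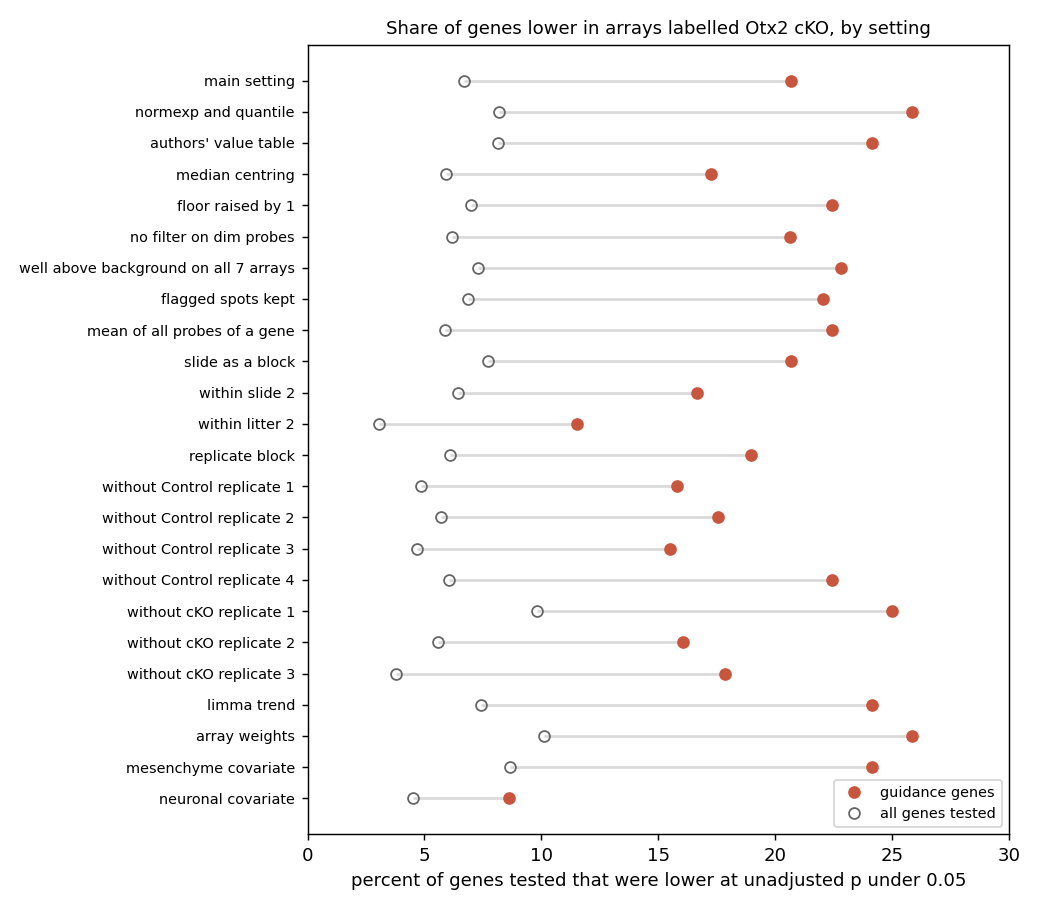
Percent of genes tested that were lower at an unadjusted p under 0.05 in the arrays labelled Otx2 cKO, for guidance genes (filled) and all genes (open), 1 row per way of processing the arrays. The guidance share is 20.7% against 6.71% in the main setting and 8.62% against 4.5% with the neuronal covariate; slide 1 alone is not plotted.

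Other genes of the pathway were read from a pair of fixed lists. Of 40 genes for intracellular signalling downstream of guidance receptors 35 were tested, with 0 past the adjusted threshold, 0 higher and 2 lower at an unadjusted limma p under 0.05; 2 of 35 is 5.714%, under the 6.71% of all genes. These were Rasa1, a Ras GTPase-activating protein, at -0.28 ± 0.08 (SE, limma adjusted p = 0.309), and Crmp1, a mediator of semaphorin 3A signalling, at -0.23 ± 0.10 (SE, limma adjusted p = 0.467). Of 30 other guidance cues and adhesion molecules 25 were tested, again with 0 past the threshold and 0 higher, and 6 were lower (24.0%, against 6.71% of all genes; 3.98% of all genes were higher). Rtn4r, the Nogo receptor, measured -0.89, -0.97, -0.79 and -0.86 in the controls and -1.35, -1.60 and -1.48 in the cKO-labelled arrays, well apart at -0.59 ± 0.09 (SE, limma adjusted p = 0.0926). Cntn1, an axonal cell adhesion molecule, measured -0.53, -0.82, -0.58 and -0.76 in the controls and -1.16, -1.82 and -1.73 in the cKO-labelled arrays, at -0.90 ± 0.17 (SE, limma adjusted p = 0.176). Without cKO-labelled replicate 1, Cntn1 passed the adjusted threshold, and with array weights Rtn4r did. The median differences were -0.06 for the signalling list and -0.13 for the other cues, against 0.01 for all genes.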

How the data were processed

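Per the labels' protocols, Cy3-labelled RNA was hybridised to 4x44K arrays. Per the file headers, Agilent Feature Extraction 10.7.3.1 subtracted the background from each deposited spot intensity and detrended it; the submitters' processing notes name 10.5. The authors also deposited a log2 value table of unstated scale and centring, with column medians of 7.61 to 7.64, whose probe order followed the median spot signal; it served as an alternative.

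Control and flagged spots were left out. Each array was scaled to its 75th percentile, values were floored at log2 -7.59, and spots were averaged per probe. Of 41174 probes 24836 were named through RefSeq accessions (GRCm38.p6). A gene was tested where 3 or more arrays had its brightest probe well above background and it had at least 2 unflagged values per group. The groups were compared with limma 3.58.1 in R 4.3.3 (lmFit, eBayes, group only), adjusted by Benjamini-Hochberg over 13347 genes at 0.05; p-values are two-sided. The main fit was also run on simulated data with independent noise per gene and no slide or litter effects. Planted differences there were larger than those of most members, so that run does not cover differences of their size. The number of arrays limits the precision; no spot was saturated (0), and 68.4% to 72.2% of spots were well above background.

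The genes named were those past the threshold; up to 8 per direction with non-overlapping groups; the 2 smallest p-values per family; members with a known role in this tissue; members detected in 1 group; and from the pathway lists the 2 smallest p-values. Other members are named after their values were seen. Members and lists were chosen with earlier results of these data known. The normexp alternative used median spot signals, as the files give no mean, and that and the neuronal covariate were added after seeing the data. Replicates are separate embryos per the labels.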

Additional observations from a re-analysis of the deposited data

How the results depend on the processing

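The count of guidance genes past the adjusted threshold was 0 and became 1 (Plxna4) with limma's trend and with array weights; it was 0 in the other alternatives. The count of higher members was 1 and became 2 under normexp, in the authors' value table, without the filter on dim probes, with the mean of all probes, with slide as a block and with the mesenchyme covariate, 4 with the neuronal covariate and 6 with array weights; leaving out each array gave 1 to 6. The count of lower members was 12 and became 1 within slide 1 (where 1 cKO-labelled array is assumed to vary like the controls), 6 within litter 2 and 5 with the neuronal covariate, and leaving out each array gave 9 to 14. The shares of all genes at an unadjusted limma p under 0.05 moved as well. For higher genes the share was 3.98% in the main fit. In the settings with 2 higher members it was, in the order listed, 4.82%, 4.91%, 4.0%, 4.33%, 4.67% and 6.07%. It was 3.45% with the neuronal covariate, 7.23% with array weights and 2.86% to 5.14% when each array was left out. For lower genes it was 6.71% in the main fit, 3.05% within litter 2 and 4.5% with the neuronal covariate. Leaving out each array gave 3.79% to 9.82%. The median of the members, -0.06, was -0.12 under median centring. The pathway count of 0 became 1 with array weights and was 0 to 1 when each array was left out.

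Of the 27 named members tested 18 kept one sign in all 24 alternatives. Signs reversed within slide 1 for Ephb1 (0.12), Robo1 (0.11) and Robo2 (0.089); within slide 2 for Unc5c (0.0031); within litter 2 for Efna5 (-0.028), Robo2 (0.038), Sema3a (0.047) and Unc5d (0.029); with array weights for Robo2 (0.037) and Sema3a (0.0061); with the neuronal covariate for Efnb3 (0.017), Ephb1 (0.074), Robo1 (0.11), Robo2 (0.11) and Unc5d (0.16); with the mean of probes for Unc5d (0.014); and under median centring for Ntn1 (-0.0050). Leaving out each array gave -0.13 to 0.024 for Ephb1, -0.14 to 0.038 for Robo1 and -0.062 to 0.077 for Robo2. The cause was not tested.

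Same-numbered arrays deviated with correlations of 0.11, -0.53 and 0.03, which in groups this small cannot settle whether the numbers pair the embryos. Per the labels, same-numbered arrays came from different litters for replicates 1 and 2 and both from litter 2 for replicate 3. With a replicate block 0 members passed the adjusted threshold, 11 were lower (6.1% of all genes) and 1 was higher (4.29% of all genes). Subsets of slide or litter hold 3 or 4 arrays and call 0 genes of the whole array.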
